A study of Mus musculus with 3 samples.

Results

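The cathepsins and cystatins described here are 10 genes of the 27998 in the deposited tables, taken by their symbols: the proteases Ctsa, Ctsb, Ctsc, Ctsd, Ctsh, Ctsl, Ctss and Ctsz, and the protease inhibitors Cst3 and Cst7. They were followed in fetal mouse brain (E18.5), in single cells taken from a Percoll gradient with CD11b magnetic beads and sequenced as droplet libraries. There were 3 libraries, 1 per group. The Gzmb-cko+polyIC library came from mice of genotype Ncr1-cre;gzmbf/f given polyIC, the Ncr1-cre+polyIC library from Ncr1-cre mice given polyIC, and the Ncr1-cre+Saline library from Ncr1-cre mice given saline. All 3 groups carry the Ncr1-cre driver, which acts in natural killer and related innate lymphoid cells, so none is without Cre. PolyIC, a synthetic double-stranded RNA, is used as a stand-in for viral infection. No Gzmb-cko library with saline was analysed here. The sources used here do not give the polyIC dose, the injection day, how many fetuses went into a library, or whose genotype, dam's or fetus's, the label states.

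Cathepsins are proteases that work mostly in the acidic lysosome, where they degrade engulfed and endocytosed protein. Ctsd is an aspartic endopeptidase, Ctsb, Ctsl and Ctss are cysteine proteases that cut within chains, Ctsc, Ctsh and Ctsz are cysteine proteases that trim chain ends, and Ctsa is a serine carboxypeptidase that also protects other lysosomal enzymes. Cystatins block cysteine cathepsins: cystatin C, from Cst3, is secreted and is a familiar abundant transcript of microglia, and cystatin F, from Cst7, is made by immune cells and reaches lysosomes, where cathepsin C is among its targets. Cathepsin C in turn activates the serine proteases of cytotoxic granules and neutrophil granules, granzyme B included.

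A cell was kept if it had 500 or more genes and no more than 10% of its UMIs (unique molecular identifiers, 1 per captured RNA molecule) on mitochondrial genes. Kept cells numbered 13447 in the Gzmb-cko+polyIC library, 10759 in the Ncr1-cre+polyIC library and 12148 in the Ncr1-cre+Saline library. The matrices held 105574073, 85442198 and 89295907 UMIs in that order, and any pair of libraries shared 63 to 71 cell barcodes. The lowest barcode total was 500 UMIs in both polyIC libraries and 3133 UMIs in the saline library. Gzmb, the targeted gene, had 2 UMIs in 1 cell of the Gzmb-cko+polyIC library, against 127 UMIs in 6 cells of the Ncr1-cre+polyIC library and 61 UMIs in 4 cells of the Ncr1-cre+Saline library, too few cells to check the deletion. With 1 library per group no difference between groups has a replicate check and no p-value was computed. Intervals are 95% and cover counting error only.

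Microglia were cells with P2ry12 and without Mrc1 UMIs: 5399, 4519 and 5452 cells in the Gzmb-cko+polyIC, Ncr1-cre+polyIC and Ncr1-cre+Saline libraries. Of these, 304, 96 and 216 cells held at least 10 Spp1 UMIs and are called Spp1-high. Their marker list (Gpnmb, Lpl, Igf1, Itgax, Cd9, Lgals3, Fabp5) summed to 7711, 6650 and 5531 CPM (UMIs of the genes per 1000000 UMIs of the class), against 1659, 1359 and 1181 CPM in the remaining, Spp1-low microglia. Monocytes (Ccr2 and Ly6c2 UMIs) numbered 465, 510 and 718 cells, and neutrophils (S100a8 and S100a9 at 20 or more UMIs each) 212, 562 and 543 cells.

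The gates were not clean. P2ry12 was detected in 82.8%, 75.9% and 77.2% of the 1896, 686 and 1125 cells with Mrc1 and Pf4 UMIs, the gate meant for border macrophages. Their microglial marker list summed to 6902 to 7628 CPM, against 9810 to 12363 CPM in microglia, and their border macrophage list to 2304 to 3477 CPM, against 232 to 283 CPM in microglia. They are therefore called Mrc1+ Pf4+ cells below. P2ry12 was also detected in 24.7% to 41.9% of gated monocytes and in 19.8% to 46.6% of gated neutrophils. Values of these classes are therefore also given for cells without P2ry12 UMIs, a choice made after the data were seen. Such cells were not free of microglial RNA. Their microglial marker list summed to 3159 to 3881 CPM in Mrc1+ Pf4+ cells, 432 to 880 CPM in monocytes and 359 to 802 CPM in neutrophils.

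Promoters of some members that differed between Spp1-high and Spp1-low microglia are shown first. Lysosomal genes are known as targets of the TFEB, TFE3 and MITF family, which binds the E-box CACGTG. RefSeq promoter windows (GRCm38.p6, 300 bases each, printed along the gene's strand) matched 8 of the 10 members, with 9 windows. Ctsb and Ctsh had no window, and the windows of Ctsa, Ctsc and Ctsz are not printed. Ctsd lies at chr7:142387778-142388077 on the minus strand, Ctsl at chr13:64370471-64370770 on the minus strand and Cst7 at chr2:150570165-150570464 on the plus strand, and these 3 genes were higher in Spp1-high cells. Ctss lies at chr3:95526536-95526835 on the plus strand and Cst3 at chr2:148875463-148875762 on the minus strand, and both were lower there. Neither was lower by 1.5-fold in all 3 libraries. Capitals mark CACGTG, which reads the same on both strands.
Ctsd promoter: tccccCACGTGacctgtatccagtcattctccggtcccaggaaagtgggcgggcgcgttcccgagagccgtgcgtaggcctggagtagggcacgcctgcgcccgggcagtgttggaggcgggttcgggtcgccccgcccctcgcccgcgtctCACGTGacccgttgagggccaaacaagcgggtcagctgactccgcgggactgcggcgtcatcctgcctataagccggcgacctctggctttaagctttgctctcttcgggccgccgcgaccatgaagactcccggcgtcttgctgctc
Ctsl promoter: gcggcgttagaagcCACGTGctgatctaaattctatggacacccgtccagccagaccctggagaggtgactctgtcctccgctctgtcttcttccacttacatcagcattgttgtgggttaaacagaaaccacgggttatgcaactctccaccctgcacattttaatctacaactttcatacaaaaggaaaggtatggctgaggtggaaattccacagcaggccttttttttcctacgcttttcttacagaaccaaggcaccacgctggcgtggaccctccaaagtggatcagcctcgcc
Cst7 promoter: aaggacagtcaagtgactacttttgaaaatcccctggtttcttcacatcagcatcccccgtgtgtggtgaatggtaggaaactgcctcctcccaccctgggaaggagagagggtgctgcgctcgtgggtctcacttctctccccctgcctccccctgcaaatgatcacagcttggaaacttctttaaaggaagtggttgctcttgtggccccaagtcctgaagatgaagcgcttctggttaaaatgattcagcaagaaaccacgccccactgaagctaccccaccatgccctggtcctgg
Ctss promoter: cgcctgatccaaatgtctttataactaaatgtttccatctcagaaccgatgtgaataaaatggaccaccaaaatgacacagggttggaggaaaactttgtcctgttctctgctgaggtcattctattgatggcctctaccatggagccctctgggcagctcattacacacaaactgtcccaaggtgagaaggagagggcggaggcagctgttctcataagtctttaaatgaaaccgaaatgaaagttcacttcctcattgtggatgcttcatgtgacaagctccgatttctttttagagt
Cst3 promoter: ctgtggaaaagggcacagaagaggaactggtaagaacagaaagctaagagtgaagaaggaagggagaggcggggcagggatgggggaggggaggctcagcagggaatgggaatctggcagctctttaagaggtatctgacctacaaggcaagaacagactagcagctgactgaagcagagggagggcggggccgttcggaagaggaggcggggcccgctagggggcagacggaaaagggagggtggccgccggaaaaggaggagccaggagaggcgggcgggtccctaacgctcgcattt

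CACGTG stood in the Ctsd window at -245 and -98 and in the Ctsl window at -236, counted from the RefSeq start as 0. It also stood in the second of 2 Ctsa windows (chr2:164833523-164833822, plus strand) at -12 and 5. By the GENCODE positions given below, the Ctsl window and this Ctsa window lie wholly inside their genes, and the Ctsd window mostly so. The offsets are therefore not distances from the GENCODE gene start. Of 32851 promoter windows of the same length, 7.15% held it. The longer TCACGTGA, which contains it, stood in the Ctsd and Ctsa windows and in 0.974% of all windows. The letters CACGTG were not in the windows of Ctsc, Ctss, Ctsz, Cst3 and Cst7. Of these genes, Ctsc, Ctsz and Cst7 were higher in Spp1-high than in Spp1-low microglia in every library, and Ctss and Cst3 were lower. Any part of the motif in these differences was not tested.

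In the GENCODE annotation of GRCm38, the build of the files, Ctsa (chr2:164832873-164841032), Cst3 (chr2:148871722-148875692) and Cst7 (chr2:150570415-150578944) lie on chromosome 2, as does Ctsz (chr2:174427493-174439039). Ctsc (chr7:88278085-88310888) and Ctsd (chr7:142375911-142388038) lie on chromosome 7, Ctsb (chr14:63122462-63145923) on chromosome 14, Ctsh (chr9:90054152-90076089) on chromosome 9, Ctsl (chr13:64359337-64370890) on chromosome 13 and Ctss (chr3:95526786-95556403) on chromosome 3. Ctsa, Ctsb, Ctsc and Ctsz each overlap at least 1 gene on the opposite strand. In the last bases of the longest transcript, 31-base stretches shared with other genes made up 9.79% for Ctsa, 7.44% for Ctsc and 3.62% for Ctsl, and none were found for the other 7 members.

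**Figure D1:**
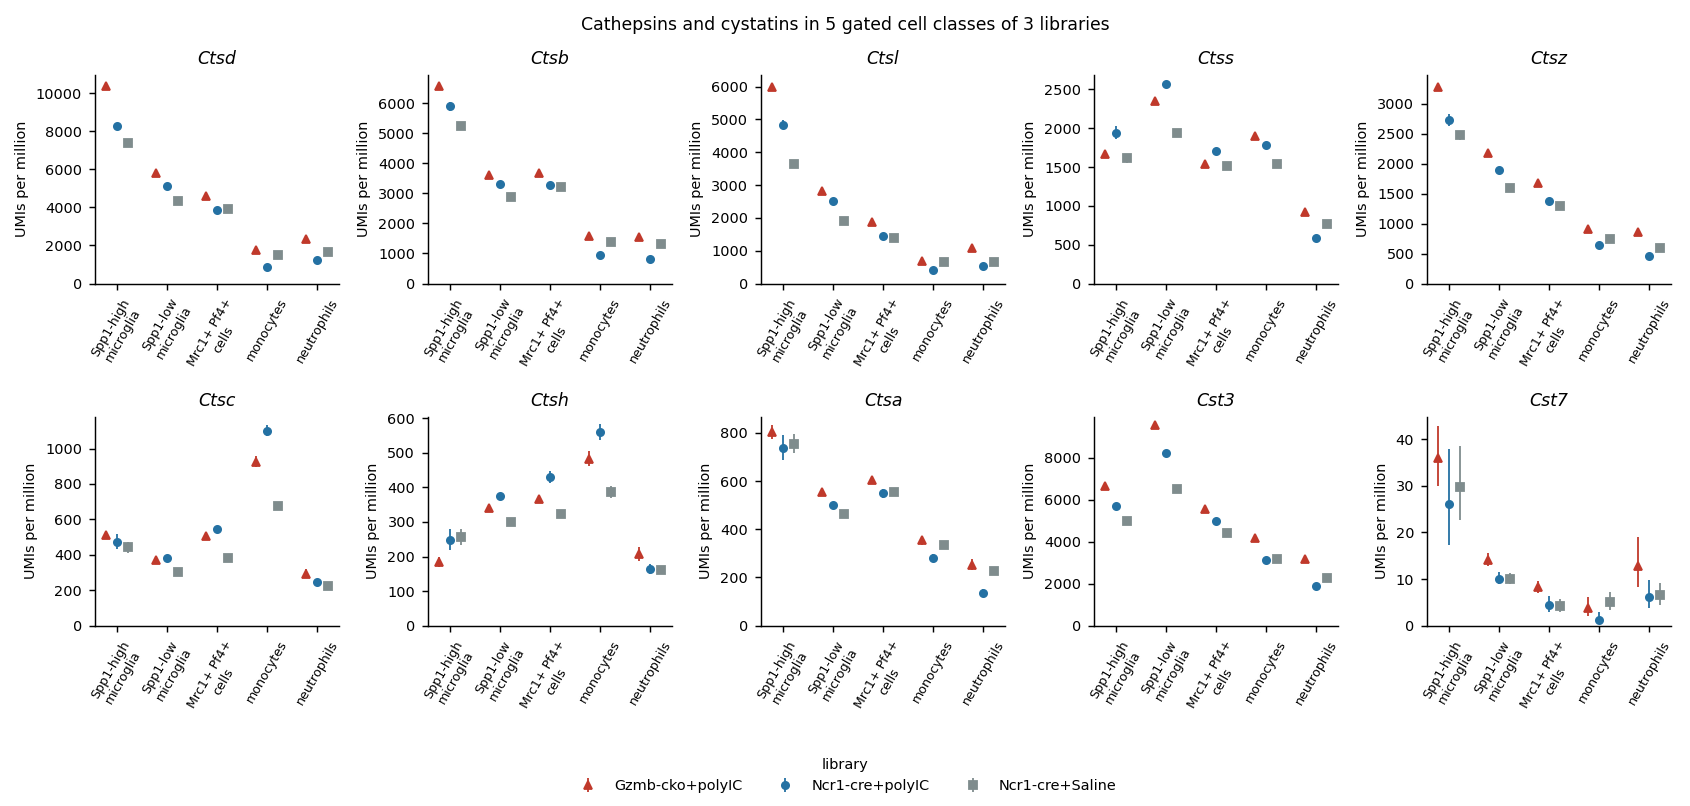
Each panel plots 1 gene as CPM within a class (linear axis from 0) in 5 gated cell classes; triangles, circles and squares are the 3 libraries and bars are 95% Poisson intervals. Ctsd, Ctsb, Ctsl, Ctsz, Ctsa and Cst7 have their highest points in Spp1-high microglia, Ctss and Cst3 in Spp1-low microglia, and Ctsc and Ctsh in monocytes.

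Spp1-high microglia carried more Ctsl, Ctsd and Ctsb transcript and less Cst3 and Ctss transcript than Spp1-low microglia in all 3 libraries. Ctsl, Ctsd, Ctsb and Cst7 were at least 1.5-fold higher in every library, while Cst3, Ctss and Ctsh were lower in every library without reaching that fold in all of them. The 4 of 10 members higher compare with 2.08% of the 12118 genes tested (at least 100 UMIs over both classes and all libraries), and 0 of 10 lower with 8.13% of genes. The median log2 ratio was 0.59 over the members and -0.20 over all tested genes.

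Ctsd, the aspartic protease, had 10388, 8268 and 7393 CPM in Spp1-high microglia of the Gzmb-cko+polyIC, Ncr1-cre+polyIC and Ncr1-cre+Saline libraries, against 5815, 5106 and 4322 CPM in Spp1-low microglia of the same libraries. The 2 sets of values did not overlap, and the ratios were 1.79, 1.62 and 1.71. Ctsb, a cysteine protease with both endopeptidase and carboxypeptidase activity, had 6567, 5886 and 5240 CPM in Spp1-high cells, against 3603, 3294 and 2888 CPM in Spp1-low cells. Its ratios, 1.82, 1.79 and 1.81, were nearly the same in the 3 libraries.

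Ctsl, an endopeptidase of lysosomal protein turnover, had 6000 CPM in Spp1-high cells of the Gzmb-cko+polyIC library, 4838 CPM in those of the Ncr1-cre+polyIC library and 3646 CPM in those of the Ncr1-cre+Saline library. Spp1-low cells of these libraries had 2804, 2527 and 1892 CPM. The ratio was 2.14 (2.11 to 2.17), 1.91 (1.86 to 1.97) and 1.93 (1.88 to 1.98).

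Ctss, the endopeptidase known for trimming the invariant chain of MHC class II, ran the other way, with 1662, 1941 and 1613 CPM in Spp1-high cells and 2344, 2569 and 1944 CPM in Spp1-low cells. Its ratios were 0.71, 0.76 and 0.83. Ctsh, an aminopeptidase, had 184, 248 and 256 CPM in Spp1-high cells and 339, 375 and 300 CPM in Spp1-low cells, with the lowest level in the Spp1-high cells of the Gzmb-cko+polyIC library. The Ctsh ratio was 0.54 (0.50 to 0.59), 0.66 (0.58 to 0.75) and 0.85 (0.78 to 0.94).

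The remaining proteases were moderately higher in Spp1-high cells. Ctsz, a carboxypeptidase, had 3286, 2729 and 2477 CPM, against 2179, 1891 and 1592 CPM in Spp1-low cells, with ratios of 1.51, 1.44 and 1.56. Ctsa had ratios of 1.45, 1.46 and 1.62, and Ctsc, the dipeptidyl peptidase, of 1.39, 1.24 and 1.46. Neither passed 1.5-fold in all 3 libraries.

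Of the inhibitors, Cst3 had 6657, 5679 and 4977 CPM in Spp1-high cells, against 9545, 8239 and 6518 CPM in Spp1-low cells, ratios of 0.70, 0.69 and 0.76. Within each library the Spp1-high value was lower, although the ranges over libraries overlapped. Cst7 was sparse, with 126, 28 and 57 UMIs in Spp1-high cells, or 35.9, 26.2 and 29.8 CPM, against 14.2, 10.1 and 10.1 CPM in Spp1-low cells. Its ratios of 2.54 (2.07 to 3.09), 2.59 (1.69 to 3.83) and 2.96 (2.19 to 3.94) had the widest intervals of the 10 members.

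**Figure D2:**
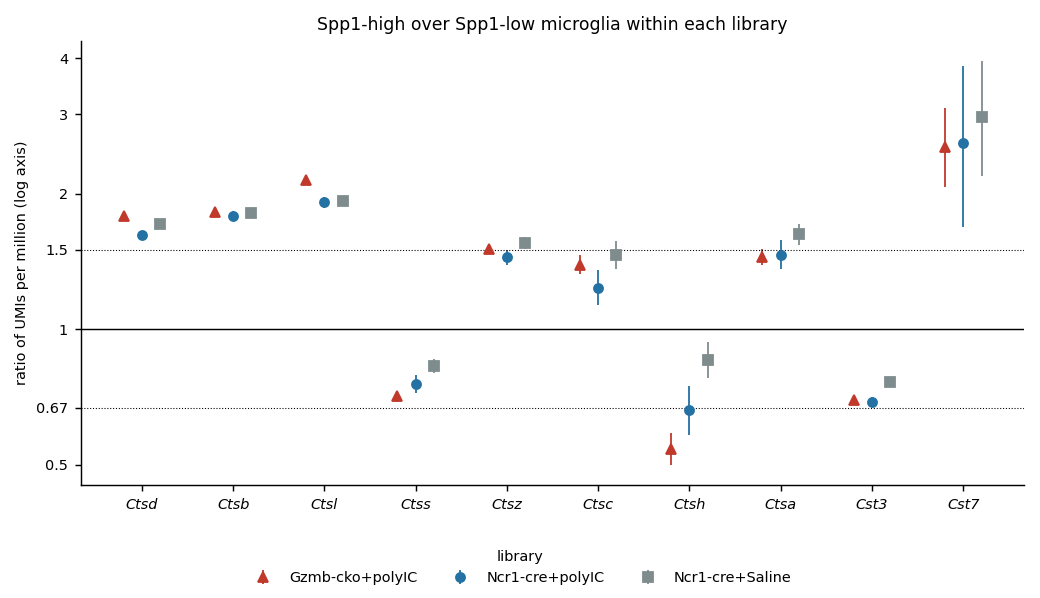
Ratio of CPM in Spp1-high over Spp1-low microglia for each gene (log axis); symbols are the 3 libraries, bars are 95% intervals of counting error, and dotted lines mark 1.5-fold in either direction. Ctsd, Ctsb, Ctsl and Cst7 lie above the upper line in every library, and Ctss, Ctsh and Cst3 lie below 1 in every library.

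The inhibitor side can be set against the protease side by the UMIs of Cst3 and Cst7 per 100 UMIs of the 6 cysteine cathepsin members, a ratio of captured transcripts and not of proteins. It was 36.7, 35.4 and 36.6 in Spp1-high microglia, against 82.1, 74.7 and 73.2 in Spp1-low microglia. In Mrc1+ Pf4+ cells it lay between 54.7 and 57.7. The Spp1-high values differed by less between libraries than from any other class. Other protease inhibitors are not counted in this ratio. Of those described below, Cstb and Serpinb6a were higher and Stfa1 and Stfa2 lower in Spp1-high than in Spp1-low microglia.

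Spp1-high cells were deeper, with median totals of 10501.5, 10292.5 and 8025.5 UMIs, against 5631, 5109 and 4743.5 UMIs in Spp1-low cells. After each cell was thinned to 3000 UMIs the ratios were 2.06, 1.89 and 1.92 for Ctsl, 0.72, 0.70 and 0.75 for Cst3, and 3.32, 1.92 and 2.58 for Cst7. Hemoglobin and other erythroid markers, which microglia should lack, summed to 20103, 93554 and 45627 CPM in Spp1-high cells and to 25901, 52893 and 100933 CPM in Spp1-low cells. Choroid plexus markers summed to 1804, 1545 and 2718 CPM in Spp1-high cells and to 4207, 10158 and 11279 CPM in Spp1-low cells. The part of RNA from other cells in these ratios was not tested.

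Along the number of Spp1 UMIs per microglial cell, the members did not all move at the same point. Ctsd had 5407, 4920 and 4150 CPM in cells with no Spp1 UMI and already 10041, 7758 and 6709 CPM at 5 to 9 UMIs, below the limit used for Spp1-high, and it was 10534.5, 8968 and 7897 CPM at 100 or more. Ctsl had 2722, 2491 and 1887 CPM at 0, 4260, 3715 and 2740 CPM at 5 to 9, and 6664, 6168 and 4299 CPM at 100 or more Spp1 UMIs, its highest bin in each library. Cst3 had 9755, 8297 and 6748 CPM at 0 and 5416, 5009 and 4250 CPM at 100 or more, its lowest bin in each library. The bins of 5 to 9 UMIs held 122, 46 and 93 cells and those of 100 or more held 118, 27 and 53 cells, and median depth also climbed with the bin.

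**Figure D3:**
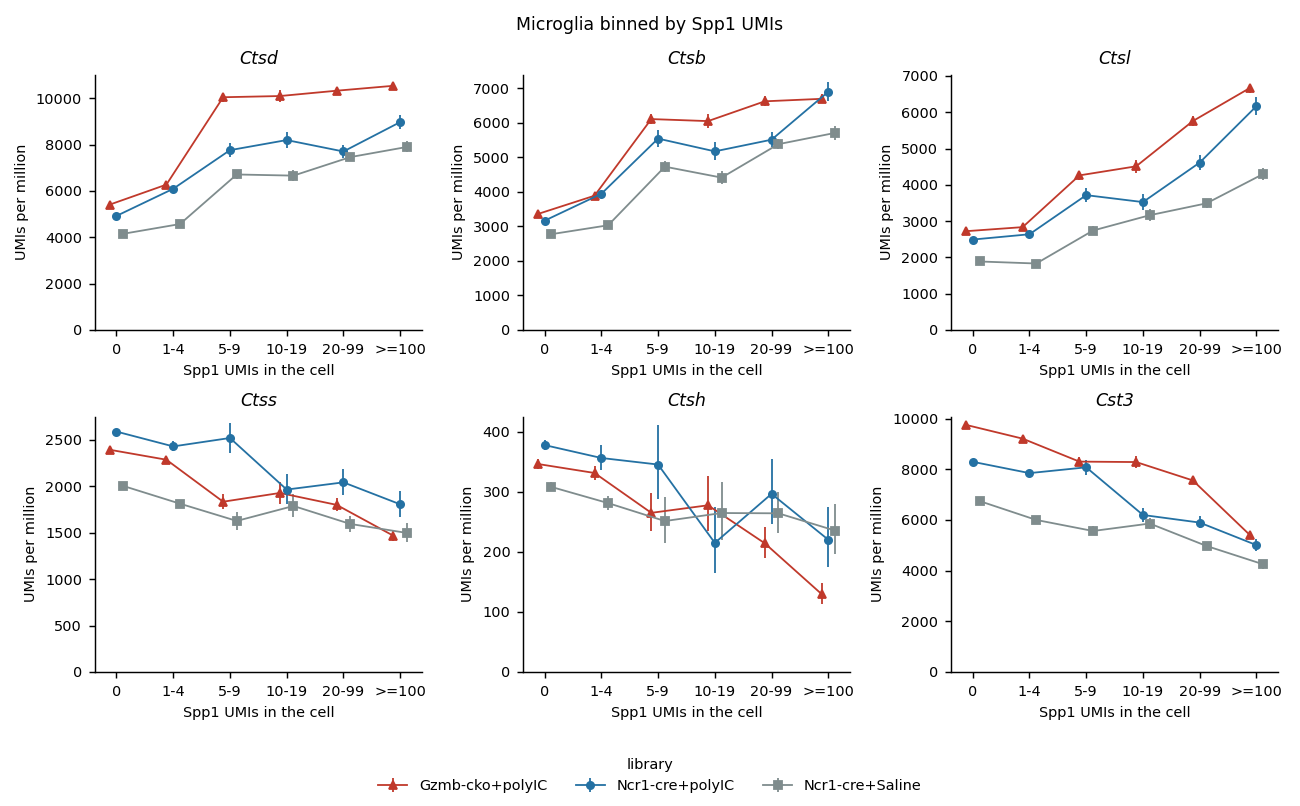
CPM of 6 members (linear axes from 0) in microglia binned by Spp1 UMIs per cell; symbols and lines are the 3 libraries and bars are 95% Poisson intervals. Ctsd and Ctsb step up between the bins of 1-4 and 5-9 UMIs, Ctsl continues to its highest value in the last bin, and Ctss and Cst3 have their lowest value there.

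Other lysosomal genes shared the contrast only in part. In Spp1-high against Spp1-low microglia, 3 of 25 acid hydrolases, 2 of 16 proton pump genes, 1 of 16 targeting and membrane genes and 2 of 9 other lysosomal proteases were at least 1.5-fold higher in all 3 libraries, and none of these lists had a member lower by that rule. The median log2 ratio was 0.25, 0.44, 0.29 and -0.20 for these lists, against -0.20 over all genes. Of 8 genes of antigen presentation and nucleic acid sensing, 0 were higher and 2 were lower. By the same rule 2.08% of 12118 genes were higher and 8.13% were lower.

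By size of ratio the listed genes that stood out were Atp6v0d2, H2-Aa, Gla, Serpinb6a, Cstb and Cd74. Cstb, the cytosolic cystatin B, had 653, 507 and 511 CPM in Spp1-high cells against 208, 173 and 171 CPM in Spp1-low cells, so it ran opposite to Cst3, with ratios of 3.15, 2.92 and 2.98. Atp6v0d2, a subunit of the proton pump that acidifies lysosomes, had 34.8, 40.2 and 41.9 CPM against 0.37, 0.31 and 0.20 CPM. Gla, a galactosidase, had ratios of 3.63, 4.36 and 3.40, and Serpinb6a, a serpin, of 2.84, 4.31 and 4.24. The list of other inhibitors, which holds Serpinb6a and Cstb, was mixed. Its genes Stfa1, with ratios of 0.42, 0.65 and 0.48, and Stfa2, with 0.64, 0.51 and 0.52, were lower by the same rule. Cd74, the invariant chain that Ctss trims, had ratios of 0.34, 0.29 and 0.40. H2-Aa, a class II gene, had 46, 1 and 42 UMIs in Spp1-high cells, or 13.1, 0.936 and 22.0 CPM, against 46.1, 25.3 and 48.8 CPM in Spp1-low cells. Mitf, of the CACGTG-binding family named above and the 1 of 4 listed transcription factors past 1.5-fold, had ratios of 2.56, 2.13 and 2.17, and is named after its values were seen.

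Between Mrc1+ Pf4+ cells and microglia few members passed the limit. No member was 1.5-fold higher in all 3 libraries (3.67% of 12673 genes were) and 1 was lower, Cst7 (2.13% of genes were). Cst7 had 8.32, 4.39 and 4.21 CPM in Mrc1+ Pf4+ cells and 16.3, 10.7 and 11.2 CPM in microglia. Ctsc leaned the other way, with 506, 544 and 384 CPM against 382, 385 and 311 CPM in microglia. In the 327, 165 and 256 Mrc1+ Pf4+ cells without P2ry12 UMIs the contrasts were wider. The ratio to microglia was 1.77, 1.73 and 1.45 for Ctsc, 0.32, 0.29 and 0.47 for Ctsl, and 0.39, 0.37 and 0.50 for Cst3. Choroid plexus markers summed to 2656, 24531.5 and 23436 CPM in these cells and to 3973, 9816 and 10777 CPM in microglia. The part of RNA from other cells in these ratios was not tested.

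Monocytes had a protease set of another make-up. Ctsc was at least 1.5-fold higher than in microglia in all 3 libraries, as were 9.79% of 12334 genes, and Ctsb, Ctsd, Ctsl, Ctsz, Cst3 and Cst7 were lower, as were 22.3% of genes. Ctsc had 924, 1101 and 677 CPM in monocytes, against 382, 385 and 311 CPM in microglia, ratios of 2.42 (2.33 to 2.51), 2.86 (2.76 to 2.96) and 2.18 (2.10 to 2.26). Ctsh had 484, 560 and 387 CPM against 324, 370 and 297 CPM, ratios of 1.49, 1.51 and 1.30. Ctss had 1902, 1781 and 1535 CPM against 2278, 2544 and 1924 CPM, ratios of 0.84, 0.70 and 0.80.

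Ctsd had 1752, 853 and 1516 CPM in monocytes, against 6260, 5232 and 4502 CPM in microglia. In the 306, 384 and 417 monocytes without P2ry12 UMIs it had 611, 459 and 608 CPM. Ctsl had 189, 153 and 277 CPM without the cells that held P2ry12, against 696, 406 and 654 CPM with them. Ctsc, Ctsh and Ctss had 1061, 1153 and 839 CPM, 530, 547 and 425 CPM, and 1955, 1664 and 1532 CPM in the same cells, close to or above their levels in all gated monocytes.

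Neutrophils had low levels of most members. In all 3 libraries 8 of 10 members were at least 1.5-fold lower than in microglia (31.4% of 12332 genes were), Ctsc and Cst7 being the others. Against monocytes, Ctsc, Ctsh and Ctss were lower (12.6% of 9211 genes were) and none was higher (3.82%). Ctsc had 294, 244 and 224 CPM in neutrophils, against 924, 1101 and 677 CPM in monocytes. Ctss had 919, 586 and 765 CPM in neutrophils, against 1902, 1781 and 1535 CPM in monocytes.

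The neutrophil values also changed without the cells that held P2ry12 UMIs. In the 123, 451 and 290 gated neutrophils without them, Ctsl had 107, 116 and 180 CPM, against 1069, 525 and 670 CPM in all gated neutrophils. Ctsd had 436, 510 and 607 CPM, against 2332, 1255 and 1670 CPM. With P2ry12 at 0, 7 members were lower by at least 1.5-fold in neutrophils than in monocytes in all 3 libraries (Ctsa, Ctsb, Ctsc, Ctsh, Ctss, Ctsz and Cst3), as were 33% of 7368 genes. Ctsl was also lower in each library, by less than that fold in the Ncr1-cre+polyIC library. Cst7 was higher by that fold, as were 4.75% of genes, a count that rests on 2, 12 and 9 UMIs in neutrophils and 1, 3 and 3 UMIs in monocytes.

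**Figure D4:**
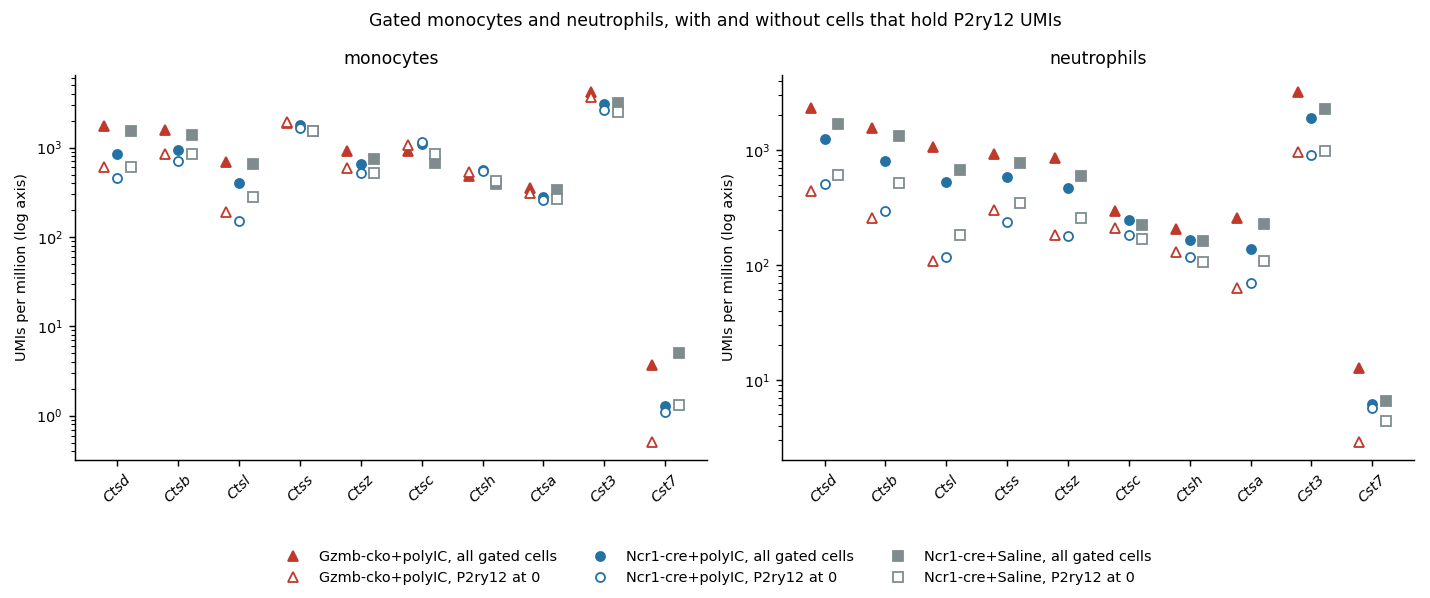
CPM (log axes) of the 10 members in gated monocytes (left) and neutrophils (right) of the 3 libraries; filled symbols are all gated cells and open symbols those without P2ry12 UMIs. Ctsd, Ctsb and Ctsl drop between filled and open symbols in both classes, while monocyte Ctss, Ctsc and Ctsh stay close.

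Of the other inhibitors on the fixed list, stefins and serpins included, 7 of 9 were at least 1.5-fold higher than in monocytes in all 3 libraries. By the same rule 3.82% of 9211 genes were. Stfa1, a stefin, that is, a cytosolic cysteine protease inhibitor, had 19330, 27776 and 21764 CPM in neutrophils, against 231, 472 and 851 CPM in microglia. Its ratio to monocytes was 13.6, 13.3 and 7.61. Stefin genes are near-identical copies, so counts of single stefins are uncertain.

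The order of the classes depended on the gene. From high to low median, Ctsd, Ctsb, Ctsl, Ctsz, Ctsa and Cst7 began with Spp1-high microglia, whose range over the 3 libraries did not touch that of the next class. For Ctsb the next 2 classes, Spp1-low microglia and Mrc1+ Pf4+ cells, did not differ beyond their ranges (2888 to 3603 and 3210 to 3674 CPM). For Ctsh, monocytes (387 to 560 CPM) overlapped Mrc1+ Pf4+ cells (323 to 431 CPM), which overlapped Spp1-low microglia (300 to 375 CPM).

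Over the 15 values of 5 classes in 3 libraries, which share libraries and free RNA, Pearson correlations of log2(CPM + 1) described 2 patterns. The values are of all gated cells, so those of Mrc1+ Pf4+ cells, monocytes and neutrophils include cells with P2ry12 UMIs. The part of such cells in the correlations was not tested. Ctsd and Ctsl had r = 0.99, and Ctsb, Ctsd, Ctsl and Ctsz had pairwise r of 0.96 to 0.99. Ctsc and Ctsh had r = 0.78 with each other and from -0.21 to 0.05 with those 4. Among 7760 genes the nearest to Ctsb were Maml2, Dpp7 and Pld3 (r = 0.994, 0.987 and 0.987), to Ctsd they were Dtnbp1, Ctsl and Apbb2, to Ctsl they were Ctsd, Slc23a2 and Rcan1, and to Ctsz they were Gusb, Spcs2 and Aig1. The nearest were Calr, Pebp1 and Cd68 to Ctsa, Cd48, BC005537 and Capzb to Ctsc, Fut8, G3bp2 and Herc6 to Ctsh, Evl, Ipo7 and Gtpbp4 to Ctss, Prmt1, Papss1 and Rabggtb to Cst3, and Cd9, Pfkfb3 and Csf1 to Cst7.

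Deletion of Gzmb under polyIC was addressed by the Gzmb-cko+polyIC and Ncr1-cre+polyIC libraries, and polyIC itself by the Ncr1-cre+polyIC and Ncr1-cre+Saline libraries. Both comparisons use the Ncr1-cre+polyIC library, so they are not independent. In microglia the 10 members together made up 2.84% of UMIs in the Gzmb-cko+polyIC library, 2.51% in the Ncr1-cre+polyIC library and 2.06% in the Ncr1-cre+Saline library.

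In Gzmb-cko+polyIC over Ncr1-cre+polyIC microglia, 1 of 10 members, Cst7, passed 1.5-fold, as did 7.30% of 11428 genes in either direction and 0.779% upward. Cst7 had 587 UMIs, or 16.3 CPM, in the Gzmb-cko+polyIC library, against 289 UMIs, or 10.7 CPM, in the Ncr1-cre+polyIC library, and 11.2 CPM in the Ncr1-cre+Saline library. The ratio was 1.52 (1.31 to 1.75), just past the limit, and the log2 ratio of 0.60 became 0.37 with per-cell CPM averaged over cells, below the limit. In cells thinned to 3000 UMIs Cst7 was seen in 3.63%, 2.72% and 2.90% of microglia of the 3 libraries (8.08%, 5.02% and 5.41% without thinning). Neurons, a type that should lack Cst7, held it in 0 of 42, 0 of 191 and 0 of 34 thinned cells, for which the exact binomial upper limits are 8.41%, 1.91% and 10.3%. Within Spp1-low and Spp1-high microglia taken apart the Cst7 ratio was 1.40 and 1.37, below the limit in both.

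The other members differed less. Ctsd had 6260 CPM in Gzmb-cko+polyIC microglia and 5232 CPM in Ncr1-cre+polyIC microglia, a ratio of 1.20, and Ctsl had 3115 and 2619 CPM, a ratio of 1.19. Ctsz, Ctsb, Cst3 and Ctsa had ratios of 1.19, 1.15, 1.14 and 1.13. Ctss had a ratio of 0.90 and Ctsh of 0.88. Ctsc was at 0.99, a log2 ratio that was 0.05 with TMM scaling, a trimmed mean over genes. The members' median log2 ratio was 0.19 and that of all genes -0.06, and 38.7% of genes were higher at all.

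In Ncr1-cre+polyIC over Ncr1-cre+Saline microglia, 0 of 10 members passed 1.5-fold, as did 9.27% of 11438 genes. At a lower limit, a log2 ratio of 0.32 that was chosen after the data were seen, 3 members were higher (Ctss, Ctsl and Cst3), as were 29.5% of genes. Ctss had 2544 CPM against 1924 CPM, a ratio of 1.32 (1.31 to 1.34), Ctsl 2619 against 1994 CPM, a ratio of 1.31 (1.30 to 1.33), and Cst3 8137 against 6428 CPM, a ratio of 1.27 (1.26 to 1.27). The ratio was above 1 for 9 members, as it was for 75.4% of all genes, with a median log2 ratio of 0.27 for the members and 0.19 for all genes. TMM scaling moved every log2 ratio by -0.18, after which Ctss was at 0.22, Ctsl at 0.21 and Cst3 at 0.16, and Ctsa and Ctsb were below 0, at -0.10 and -0.02.

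Erythroid markers summed to 25337, 54509 and 97692 CPM in microglia of the Gzmb-cko+polyIC, Ncr1-cre+polyIC and Ncr1-cre+Saline libraries, and choroid plexus markers to 3973, 9816 and 10777 CPM. Both lists were detected in full in each library. They ran opposite to the members' share of UMIs, and their part in it was not tested. With totals that leave out mitochondrial, ribosomal protein and hemoglobin genes, the log2 ratio of Ctsl was 0.25 in Gzmb-cko+polyIC over Ncr1-cre+polyIC and 0.26 in Ncr1-cre+polyIC over Ncr1-cre+Saline, against 0.25 and 0.39 with full totals.

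**Figure D5:**
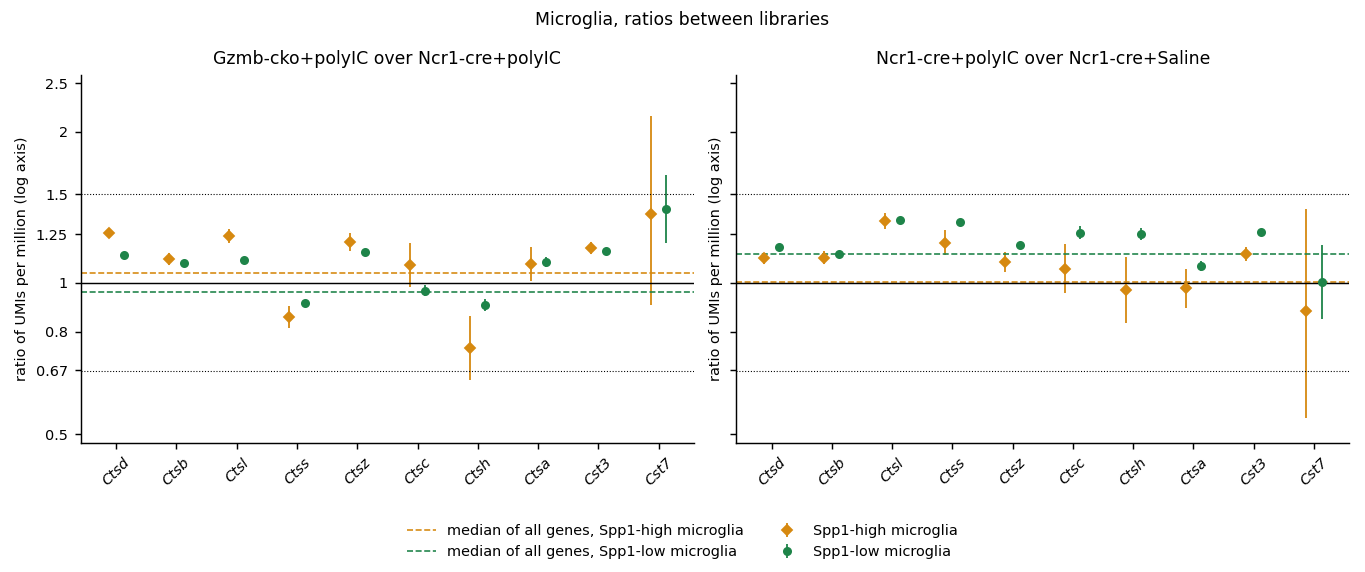
Ratio of CPM between libraries (log axes) for each member in Spp1-high (diamonds) and Spp1-low (circles) microglia, with 95% intervals of counting error; dashed lines are the median of all tested genes and dotted lines mark 1.5-fold. In both panels every point lies between the dotted lines, and Ctss and Ctsh lie below 1 in the left panel.

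Within Spp1-high microglia alone, the Gzmb-cko+polyIC over Ncr1-cre+polyIC ratio was 1.26 for Ctsd, 1.24 for Ctsl, 0.86 for Ctss and 0.74 for Ctsh. The Ncr1-cre+polyIC over Ncr1-cre+Saline ratio there was 1.33 for Ctsl and 1.20 for Ctss. No member passed 1.5-fold in either comparison, as did 7.37% of 5141 genes and 9.78% of 3722 genes. The share of microglia that were Spp1-high was 5.63%, 2.12% and 3.96% in the Gzmb-cko+polyIC, Ncr1-cre+polyIC and Ncr1-cre+Saline libraries.

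In Gzmb-cko+polyIC over Ncr1-cre+polyIC microglia, 6.52% of 11428 genes were past 1.5-fold lower and 0.779% higher. Of the other listed genes, 5 of 8 other inhibitors were past 1.5-fold lower, all stefins. In either direction 0 of 8 other lysosomal proteases and 0 of 25 acid hydrolases passed, and 1 of 16 proton pump genes, Atp6v0d2, was higher with 3.72 CPM against 1.90 CPM. Of 7 genes of antigen presentation and nucleic acid sensing, 2 were higher, the class II chains H2-Aa with 42.9 CPM against 24.3 CPM and H2-Ab1 with 44.2 CPM against 29.4 CPM. Of 16 targeting and membrane genes 1 was lower, Igf2r, a mannose 6-phosphate receptor, with 1.86 CPM against 3.50 CPM, and 0 of 4 transcription factors of lysosomal genes passed. Among the stefins, Stfa1 had 231 CPM against 472 CPM. In Ncr1-cre+polyIC over Ncr1-cre+Saline microglia, 5 of 8 other inhibitors and 1 of 9 other proteases, Ctsg, were lower, as were 2 of 7 presentation and sensing genes, H2-Aa and H2-Ab1, with ratios of 0.51 and 0.61. None of the 16 proton pump genes, 16 targeting and membrane genes and 4 transcription factors passed there. Of 11438 genes in that comparison, 1.92% were lower by that fold and 9.27% passed in either direction. Stefins and Ctsg are neutrophil genes, and the neutrophil marker list summed to 480, 698 and 1203 CPM in microglia of the Gzmb-cko+polyIC, Ncr1-cre+polyIC and Ncr1-cre+Saline libraries. Its part in these values was not tested.

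In Mrc1+ Pf4+ cells, 1 member passed 1.5-fold in Gzmb-cko+polyIC over Ncr1-cre+polyIC, Cst7 with a ratio of 1.90 (1.53% of 10021 genes were higher by that fold), and 0 passed in Ncr1-cre+polyIC over Ncr1-cre+Saline (12.6% of 9023 genes did). Ctsc had 544 CPM in the Ncr1-cre+polyIC library and 384 CPM in the Ncr1-cre+Saline library, a ratio of 1.42, and Ctsh 431 and 323 CPM, a ratio of 1.33. Members with ratios above 1 in that comparison numbered 8 among all Mrc1+ Pf4+ cells, where 74.2% of 9023 genes were higher at all. Among the cells without P2ry12 UMIs they numbered 2, Ctsc at 1.48 and Ctsh at 1.22. The share of all genes higher at all is not given for these cells. Ctsd was at 0.74 and Ctsl at 0.80 in these cells. The median log2 ratio there was -0.09 for the members and 0.16 for all 4026 genes tested. In these cells the neutrophil marker list summed to 49.7 CPM in the Ncr1-cre+polyIC library and 1603 CPM in the Ncr1-cre+Saline library. Its part in the ratios was not tested. Cst7 then had 11 UMIs in the Gzmb-cko+polyIC library, 0 in the Ncr1-cre+polyIC library and 7 in the Ncr1-cre+Saline library.

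Monocyte and neutrophil differences between libraries moved with the cells that held P2ry12 UMIs. Among all gated monocytes, 4 members were at least 1.5-fold higher in Gzmb-cko+polyIC than in Ncr1-cre+polyIC (Ctsb, Ctsd, Ctsl and Cst7; 3.09% of 6730 genes were), Cst7 with 14 UMIs against 5 and an interval of 0.97 to 10.1. Among monocytes without P2ry12 UMIs none was (2.14% of 5186 genes were), and Ctsd had 611 CPM in the Gzmb-cko+polyIC library, against 459 CPM in the Ncr1-cre+polyIC library, a ratio of 1.33. Among all gated neutrophils 8 members were higher (17.5% of 4858 genes were). Among those without P2ry12 UMIs none was (6.46% of 2863 genes were), and Ctsl had 107 CPM against 116 CPM. P2ry12 was detected in 34.2% against 24.7% of monocytes and in 42.0% against 19.8% of neutrophils of these 2 libraries.

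In Ncr1-cre+polyIC over Ncr1-cre+Saline monocytes, Ctsc was higher, with 1101 CPM against 677 CPM, a ratio of 1.63 (13.6% of 7122 genes were 1.5-fold higher), and Ctsd, Ctsl and Cst7 were lower, with ratios of 0.56, 0.62 and 0.26 (4.35% of genes were lower). The Cst7 ratio rested on 5 against 26 UMIs, which became 3 against 3 UMIs, a ratio of 0.83 (0.11 to 6.18), without the cells that held P2ry12. Without the cells that held P2ry12, Ctsc had 1153 CPM against 839 CPM, a ratio of 1.37 (1.30 to 1.46), and Ctsl 153 CPM against 277 CPM, a ratio of 0.55 (0.49 to 0.62). Ctsl was then the member past 1.5-fold among these cells, where 2.46% of 5239 genes were lower. The microglial marker list still summed to 432 CPM against 880 CPM in these monocytes, and its part in the Ctsl ratio was not tested. In neutrophils without P2ry12 UMIs, 3 members were past 1.5-fold, all lower (6.89% of 3703 genes were lower). Among them were Ctsb with 293 against 516 CPM and Ctsl with 116 against 180 CPM. In these neutrophils the microglial marker list summed to 359 against 802 CPM and the erythroid list to 51303.5 against 147298 CPM. The part of RNA from other cells in these ratios was not tested.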

How the data were processed

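Single-cell libraries of 3 groups, 1 each, were analysed. The authors deposited UMI counts per gene and cell barcode, not normalized. Per the submitters' processing notes Cell Ranger 3.0.1, STAR and the build mm10 were used; per the file headers the counts came from Cell Ranger 5.0.0. The steps from the counts on were computed here with Python 3.11.15, numpy 2.4.6, scipy 1.17.1, pandas 2.3.3, scanpy 1.11.5, matplotlib 3.10.9, R 4.3.3 and edgeR 4.0.16 (TMM only).

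The filter kept cells with 500 or more genes and no more than 10% mitochondrial UMIs. For each gate and library, a gene's summed UMIs were divided by the summed UMIs of all genes and scaled to 1000000 (CPM). A cell could enter more than 1 gate: 203, 224 and 432 cells did in the Gzmb-cko+polyIC, Ncr1-cre+polyIC and Ncr1-cre+Saline libraries. Scrublet marked 4.66%, 2.61% and 3.19% of kept cells as doublets, which were kept in the values and removed in an alternative. Levels have exact Poisson intervals and ratios exact binomial ones, at 95%. A ratio past 1.5 in either direction was counted and set beside the share of all genes with at least 100 UMIs that passed it. Class ratios had to pass in all 3 libraries, which are of 3 conditions and are not replicates.

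The members, gates and gene lists were chosen with earlier results of these data known. All 10 members are named. Other listed genes are named among those past 1.5-fold, at most 6 per comparison by size. Mitf, Stfa1 and Stfa2 in Spp1-high against Spp1-low microglia are named beyond that limit. Genes of like pattern are the 3 with the highest Pearson correlation among genes with a mean of at least 10 CPM. Promoters are RefSeq windows matched by symbol. The calculations were tested on simulated data. Alternatives changed the cell filters, gates, Spp1 limit, totals, scaling, averaging, thinning and low-count filter. The acid hydrolase counts in Ncr1-cre+polyIC over Ncr1-cre+Saline microglia are not reported here.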

Additional observations from a re-analysis of the deposited data

Results flagged for a closer look

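Among members whose log2 ratio of Ncr1-cre+polyIC over Ncr1-cre+Saline had opposite signs in 2 cell classes, 3 cases were flagged. Ctsl was at 0.39 in microglia and at -0.69 in monocytes, and at -0.35 in neutrophils. Ctss was at 0.40 in microglia and at -0.39 in neutrophils. Signs also differed in cases that were not flagged. Ctsd had 5232 against 4502 CPM in microglia and 853 against 1516 CPM in monocytes. Ctsb had 3397 against 3025 CPM and 939 against 1392 CPM in these classes. With 1 library per group the differences between classes were not tested. P2ry12 was detected in 24.7% of gated monocytes of the Ncr1-cre+polyIC library and in 41.9% of those of the Ncr1-cre+Saline library. Without the cells that held P2ry12 UMIs the Ctsl ratio was 0.55 in monocytes and 0.65 in neutrophils, and the Ctss ratio in neutrophils 0.69. In monocytes the Ctsd ratio was then 0.75 and the Ctsb ratio 0.84. The part of microglial RNA left in these cells was not tested.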

How the results depend on the processing

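Over 12 alternatives, 90.2% to 99.7% of the members' log2 ratios kept their direction. Part of this was set in advance. An Spp1 limit of 5 UMIs can change only ratios that involve Spp1-high or Spp1-low microglia. P2ry12 at 0 leaves ratios within microglia as they were. Shifts of over 1.5-fold were most frequent with P2ry12 at 0 in the monocyte, neutrophil and Mrc1+ Pf4+ gates (86 of 327 ratios), an alternative added after the data were seen, and with cells in more than 1 gate removed (56 of 330). In microglia, 3 members (Ctsl, Ctss and Cst3) passed a lower limit, a log2 ratio of 0.32, also added later, in Ncr1-cre+polyIC over Ncr1-cre+Saline, as did 29.5% of 11438 genes upward. In Gzmb-cko+polyIC over Ncr1-cre+polyIC, 0 passed 1.5-fold with cells in more than 1 gate removed, gate minimums at 2 times their value, per-cell CPM averaged or thinning to 3000 UMIs, where the Cst7 log2 ratio was 0.56, 0.54, 0.37 and 0.44. Members higher in monocytes than microglia numbered 2 (Ctsc and Ctsh) with TMM or median of ratios scaling. Members higher in neutrophils than monocytes numbered 1 (Cst7) with at least 1000 genes and at most 5% mitochondrial UMIs. The same held with cells in more than 1 gate removed, higher gate minimums, TMM, median of ratios, thinning or P2ry12 at 0. Those lower numbered 5 with cells in more than 1 gate removed and 7 with P2ry12 at 0. With P2ry12 at 0, 4.75% of 7368 genes were higher and 33% lower. For the counts under other gates, cell filters, scaling, averaging or thinning the share of all genes is not given here. Those counts therefore do not set the members apart from other genes. The share of all genes past 1.5-fold in microglia was 18.8% and 18.6% with at least 10 UMIs, and 29.9% and 30.9% with no filter, in Gzmb-cko+polyIC over Ncr1-cre+polyIC and in Ncr1-cre+polyIC over Ncr1-cre+Saline.

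Sign changes numbered 32 of 327 ratios with P2ry12 at 0, 31 of 330 with TMM, 28 with median of ratios, 23 with cells in more than 1 gate removed, and 1 to 16 under each other alternative. Among ratios of at least 1.5-fold whose interval excluded 1, those that changed sign follow as log2 ratios. With cells in more than 1 gate removed, Cst7 was at 0.00507 in Ncr1-cre+polyIC over Ncr1-cre+Saline monocytes and at -0.73 in Gzmb-cko+polyIC over Ncr1-cre+polyIC neutrophils. In Gzmb-cko+polyIC over Ncr1-cre+Saline neutrophils Ctsl was then at -0.43 and Cst7 at -0.44, and in neutrophils over monocytes of the Gzmb-cko+polyIC library Ctsl was at -0.0878. With P2ry12 at 0, neutrophils of Gzmb-cko+polyIC over Ncr1-cre+polyIC had Ctsa at -0.14, Ctsb at -0.20, Ctsd at -0.22, Ctsl at -0.12 and Cst7 at -0.99. Those of Gzmb-cko+polyIC over Ncr1-cre+Saline had Ctsl at -0.75 and Cst7 at -0.61, and Ctsl was at -0.82 in neutrophils over monocytes of the Gzmb-cko+polyIC library. Ctsc in neutrophils over microglia of the Ncr1-cre+polyIC library was at 0.0849 with TMM and 0.0622 with median of ratios scaling. The causes were not tested. No paired analysis was possible because each group has 1 library. Few Cst7 UMIs limit its values outside microglia.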
